A study of Homo sapiens and Mus musculus with 4 samples.

Results

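The regions described here are the TEAD peaks of RD cells with a high deposited score that stood apart from large peak clusters. They are the peaks on chromosomes 1 to 22 and X with a deposited score above 1000 that did not lie in a chain of 5 or more peaks. A chain joins neighbouring peaks whose gap, from the end of one to the start of the next, is at most 12.5 kb. In all, 1046 of the 22681 peaks in the RD list met this rule, and they are called members below. The list was called by the authors from 1 TEAD chromatin immunoprecipitation (ChIP-seq) library set against 1 control library made with IgG, an antibody without a chromatin target. Both came from the human cell line RD, which derives from an embryonal rhabdomyosarcoma, and the labels name no treatment. The study's other libraries, TEAD and input, are from YAP-ERMS, cells of mouse tumours driven by YAP under Pax7-CreER or Myf5-Cre, which are Cre drivers of muscle precursor cells. There were no replicates, so no difference below has a replicate check, and library depth is unknown, because the files hold no read counts.

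TEAD proteins are the transcription factors that carry the Hippo pathway's output to DNA. They bind a short element known in muscle genes as M-CAT, and they recruit the co-activators YAP1 and TAZ, which Hippo kinases hold in the cytoplasm when the pathway is active. In muscle, YAP1 activity is linked to the growth of satellite cells, the stem cells of the tissue, and embryonal rhabdomyosarcoma is a tumour with features of immature muscle. Much TEAD binding in cultured cells is known to lie at enhancers away from gene starts. A ChIP-seq peak is an interval in which reads from the immunoprecipitated library pile up over the control.

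The score is the authors' own value for each peak, read as 10 times the negative log10 of its p-value. Strong and weak, as used below, refer to this score alone, since the lists hold no read counts or folds. Because the score and the spacing of peaks chose the members, the values below that rest on score, width or spacing are a description and no test was made on them. Of all listed RD peaks, 1241 scored above 1000, or 5.47%, and the members made up 4.61% of the list. Members covered 769 kb, which is 8.94% of the length covered by the list. A further 191 peaks above 1000 lay in chains of 5 or more, and 4 lay on random or unplaced sequences. Thus 84.6% of the high-score peaks on chromosomes 1 to 22 and X lay outside such chains (Wilson 95% interval 82.4% to 86.5%). For peaks of score 1000 or less the share outside chains was 91.0% (90.6% to 91.4%). These intervals, and those below, reflect counting error alone, with each peak taken as independent.

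The member of highest score, chr12:126821692-126823140 (hg19, as are all positions), had a score of 3111 and a width of 1449 bp. It was alone in its chain, and the nearest other peak lay 31.6 kb away with a score of 118. The next member, chr7:577615-578364, scored 3104 over 750 bp and had a neighbour of score 284 at 4.07 kb. The top of the list as a whole was no member: chr1:118664716-118666571, with a score of 3180, lay in a chain of 7 peaks. These peaks are shown with their neighbours because the surroundings differed from one strong site to the next.

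A score of exactly 3100 was held by 12 RD peaks, and 8 of them were members, so the order among these 8 rests on width. No source used here says what this shared value stands for, and the order of peaks at 3100 or more may not be one of binding strength. The widest was chr5:1326852-1329166, at 2315 bp, whose only neighbour began 13 bp from its edge and scored 380. It was also the member furthest above the median width of its score bin, set out below, at 2.98 times. That bin also held members scoring as low as 1504, so its peaks were not all of similar score. Members at 3100 or more had a median width of 977.5 bp. Next came chr1:152080281-152082041, at 1761 bp, with a neighbour of score 107 at 11.2 kb. The 1112 bp peak chr9:118434772-118435883 had no other peak within 17.4 kb. The 1045 bp peak chr1:86072578-86073622 had a neighbour of score 394 at 3.98 kb. These 4 were all over 1000 bp wide, and only the one on chromosome 9 was alone in its chain.

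The other 4 members at 3100 were narrower. On chromosome 19, chr19:2540507-2541416 was 910 bp wide and was the highest peak of a chain of 4. The 805 bp peak chr12:3068167-3068971 was alone, with the nearest peak 63.7 kb away at a score of 496. The 789 bp peak chr7:84765097-84765885 was also alone, with 39.6 kb to a peak of score 220. The 765 bp peak chr18:26745017-26745781 was the highest of a chain of 3. The remaining members among the first 12 scored below the tied value. One was chr5:57137268-57139013, at 3091 and 1746 bp, and the other was chr2:43313432-43314378, at 3052 and 947 bp. Of the 15 RD peaks at 3100 or more, 10 were members and 5 lay in chains of 5 or more.

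The score limit was set for this description and cuts through a run of close values. The 3 members just inside were chr6:116759840-116760531 at 1002.1, chr1:153680906-153681487 at 1001.3 and chr15:35094503-35095004 at 1000.6. Their widths were 692, 582 and 502 bp. The 3 peaks outside clusters just below the limit were chr5:73234189-73234851 at 999.2, chr2:146138080-146138745 at 998.8 and chr6:113403816-113404431 at 998.3. Their widths were 663, 666 and 616 bp.

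Most members sat in the lower part of their score range. Of the 1046, 423 (40.4%) scored from 1000 to 1250, 249 (23.8%) up to 1500 and 239 (22.8%) up to 2000. A further 92 scored up to 2500, 33 scored between that and 3100, and 10 scored 3100 or more. The median score was 1339 (95% interval 1316 to 1375; interquartile range 1144 to 1682). Among the 191 high-score peaks in chains of 5 or more it was 1410 (1315 to 1483), and the intervals of the medians overlap.

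Members were wide for this list. The median width was 692 bp (95% interval 681 to 701; interquartile range 604 to 824 bp), against 320 bp (317 to 322) for the lower-score peaks outside clusters. Width rose with score within the members too, from a median of 623 bp (611 to 643) at scores of 1000 to 1250 to 858 bp (830 to 948) at 2000 to 2500. Across the 1046 members, which share 1 library and 1 control, width and score had a Spearman's rho of 0.45, against 0.87 over the whole list. High-score peaks in chains of 5 or more had a median width of 747 bp (717 to 773). The plot of width against score shows these classes together.

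**Figure D1:**
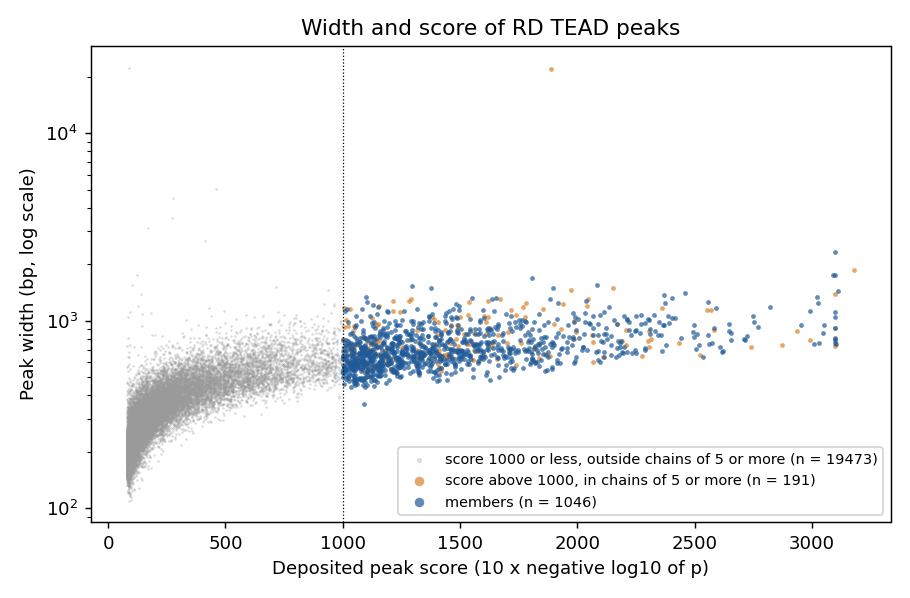
Width (bp, log scale) against deposited score for RD peaks, with 1 point per peak and the score limit of 1000 as a dotted line. Members (blue) have a median width of 692 bp and lie in 1 continuous cloud with the lower-score peaks (grey). Member widths run from 360 to 2315 bp. Those of the high-score peaks of large chains (orange) run from 485 to 21976 bp, so the widest high-score peaks are no members.

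To compare widths at broadly similar score, the list was cut by score into 50 bins of near-equal peak number. Each peak's log2 width was then set against its bin's median. The bins are coarse at the top: members scoring from 1504 to 3111 shared the same bin, although width rose with score among members. Members had a median of -0.01 log2 units (95% interval -0.03 to 0.01), while high-score peaks in large chains had 0.11 (0.04 to 0.16). Members in chains of 4 were at 0.11 (-0.00 to 0.18), members in chains of 2 at 0.00 (-0.03 to 0.05) and members in chains of 3 at -0.00 (-0.05 to 0.06). Those alone were at -0.05 (-0.09 to -0.02). By this coarse match the members alone were the narrowest of these groups, and their interval did not overlap that of the high-score peaks in large chains. Score was not held equal, with an upper quartile of 1615 for members alone and 1764 for high-score peaks in large chains. Whether this score difference accounts for the width difference was not tested.

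Only 8 members, or 0.765% (Wilson 95% interval 0.388% to 1.502%), exceeded 2 times the median width of their score bin. The background was 0.588% of RD peaks on chromosomes 1 to 22 and X. No member was more than 2-fold narrower than that median. The narrowest, chr21:30930676-30931035, was 360 bp wide at a score of 1089, which is 0.576 times the median of its score bin. It was alone, 97.9 kb from the nearest peak. The peak chr5:176621203-176621685, 483 bp at a score of 1628, came next at 0.622 times. Among wide members of modest score, chr2:196977140-196978681 measured 1542 bp at a score of 1296, or 2.28 times the median. It was alone too, with 17.7 kb to a peak of score 220. Peaks well off the usual width thus occurred among isolated members in both directions.

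Members were alone less often than weaker peaks. Of the 1046, 438 (41.9%, Wilson 95% interval 38.9% to 44.9%) had no other listed peak within 12.5 kb. Among the 19473 lower-score peaks that were also outside chains of 5 or more, 10623 (54.6%, 53.9% to 55.3%) were alone, and the background over all RD peaks on chromosomes 1 to 22 and X was 48.9%. The difference between members and lower-score peaks was -12.7 percentage points (Newcombe 95% interval -15.7 to -9.58). It was negative under all 10 alternative settings tried, from -17.1 to -9.24 points. These settings re-cut the same list by the score and spacing that the rule used, so they are no independent check. Chains of 2 held 311 members (29.7%, against 26.1% of lower-score peaks), chains of 3 held 180 (17.2%, against 12.4%) and chains of 4 held 117 (11.2%, against 6.88%).

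**Figure D2:**
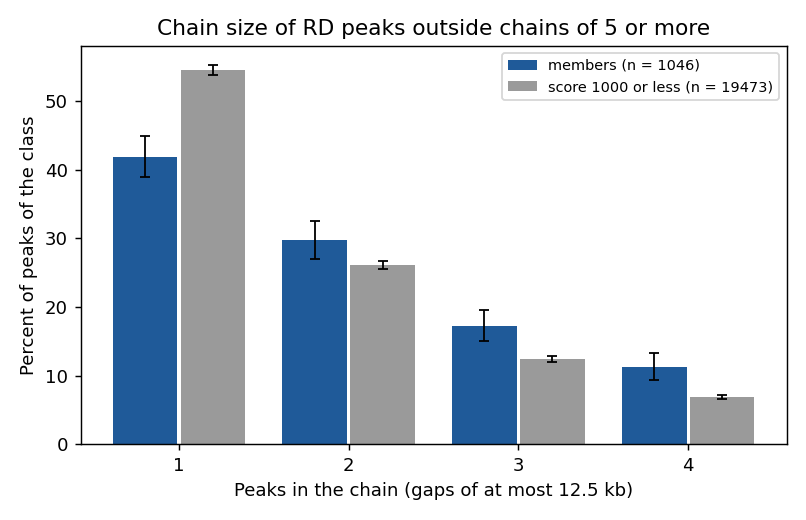
Percent of members (blue) and of lower-score RD peaks outside chains of 5 or more (grey) by the number of peaks in their chain, with Wilson 95% intervals as bars. Members are alone in 41.9% and lower-score peaks in 54.6%, and members have the higher share in chains of 2, 3 and 4.

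Read from the side of the chain, the share of peaks that were members rose with chain size. It was 3.96% of the 11061 peaks that stood alone (Wilson 95% interval 3.61% to 4.34%) and 5.76% in chains of 2 (5.17% to 6.42%). In chains of 3 it was 6.91% (6.0003% to 7.95%), and in chains of 4 it was 8.04% (6.75% to 9.55%). Members had median scores of 1327 alone, 1365 in chains of 2, 1329 in chains of 3 and 1380 in chains of 4. The intervals of these medians overlap. By score, the share of members alone was 41.6% at 1000 to 1250 (37.0% to 46.4%), 49.4% up to 1500 (43.2% to 55.6%), 41.8% up to 2000 (35.8% to 48.2%) and 33.7% up to 2500 (24.9% to 43.8%). Between 2500 and 3100 only 4 of 33 were alone, or 12.1% (4.82% to 27.3%), while 4 of the 10 members at 3100 or more were.

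Most chains with a member held only 1. Members were 4.61% of all listed peaks, and how many chains would hold more at that share was not worked out. The 608 members that had company lay in 564 chains. Of these chains, 524 held exactly 1 member, 36 held 2 and 4 held 3. Where there was 1 member, its score was 6.07 times that of the next highest peak of its chain in the median (interquartile range 3.04 to 10.0 times). The ratio ran from 1.10 to 29.96, and a value above 1 is fixed by the score limit. It was under 1.5 in 23 chains and over 5 in 296. In chains of 2 its median was 7.60, in chains of 3 it was 5.27 and in chains of 4 it was 3.63, where the next highest is picked from more peaks.

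**Figure D3:**
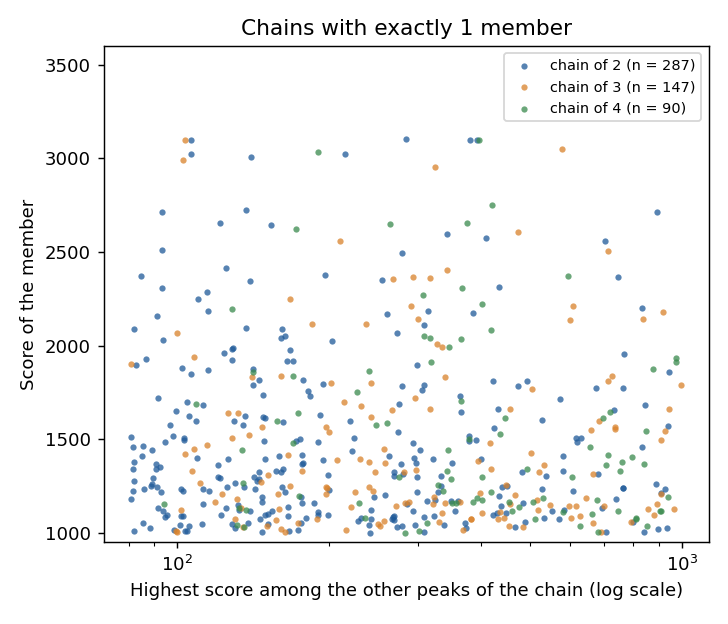
Score of the member against the highest score among the other peaks of its chain (log scale), for the 524 chains of 2, 3 or 4 peaks that hold exactly 1 member. Companion scores run from near the list's lower limit to just under the score limit. Of the 10 members at 3100 or more, 4 were alone, and the highest companion of the others scored 395, a maximum over few chains.

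The companions themselves had scores in the usual range of the list. The 887 lower-score peaks that shared a chain with a member had a median score of 177 (95% interval 165 to 195). The 7963 lower-score peaks in chains of 2 to 4 without a member had 185 (181 to 189), and the intervals overlap. They overlap within each chain size as well: 178 (164 to 219) against 184 (177 to 189) in chains of 2, and 190 (160 to 219) against 188 (180 to 199) in chains of 3. In chains of 4 the medians were 167 (140 to 190) and 183 (170 to 196). These values are a description, since the rule holds companions at 1000 or less.

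Some companions lay directly against their member. A neighbour began within 200 bp of 57 members (5.45%, Wilson 95% interval 4.23% to 6.995%), close to the 5.63% of lower-score peaks (5.31% to 5.96%). The closest were chr20:48782380-48783066, with a score of 1790, and chr12:93538013-93538489, with a score of 1120, each 2 bp from a peak of 141 and 83.0. The files do not show whether such pairs are separate sites. Within wider distances, members had a neighbour more often. A neighbour lay within 1 kb of 17.0% of members (14.9% to 19.4%) and 13.3% of lower-score peaks (12.9% to 13.8%), and within 5 kb of 39.5% (36.6% to 42.5%) and 29.6% (29.0% to 30.2%).

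Chains with several members are of interest because strong sites lay side by side in them. The rule keeps these chains to at most 4 peaks, so that few weaker peaks lay beside the members is fixed by it. The strongest of the 4 chains with 3 members was on chromosome 5. It held chr5:57120555-57121533 with a score of 2389, chr5:57133276-57134083 with 2444 and chr5:57137268-57139013 with 3091, beside 1 weaker peak of 216. On chromosome 12, chr12:106468287-106469006 scored 1641, chr12:106475255-106475848 scored 1379 and chr12:106477551-106478366 scored 1983. A weaker peak of 115 lay between the first and the second of them. The other two were tighter or weaker. On chromosome 12, chr12:89842714-89843387 (1711), chr12:89844616-89845179 (1340) and chr12:89845509-89846195 (1016) were separated by gaps of 1.23 and 0.329 kb. On chromosome 2, chr2:150590413-150591145 (1344), chr2:150598051-150598638 (1096) and chr2:150600427-150601015 (1089) made up their whole chain.

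In the 36 chains with 2 members, the gap between the members had a median of 4.09 kb and ran from 248 bp to 18.3 kb, the last with other peaks between. The higher of the pair scored 1.26 times the lower in the median and at most 2.34 times. Both members scored above 2000 in 1 pair, which spanned chr8:130328037-130335410 with scores of 2459 and 2067. The closest pair spanned chr3:29735274-29736874, with scores of 2019 and 1683 and a gap of 248 bp.

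At larger distances, members had more peaks around them than weaker peaks had. Between 50 and 100 kb from the middle of a member, the mean density of other RD peaks was 20.2 per Mb, against 17.5 around lower-score peaks outside clusters. From 500 to 1000 kb the densities were close, at 11.1 and 10.7 per Mb. The contrast was present for peaks that were alone in their chain: 17.5 per Mb around members and 14.7 around lower-score peaks at 50 to 100 kb, and 10.5 and 10.2 at 500 to 1000 kb. Relative to the density of their own chromosome, the values at 50 to 100 kb were 2.24 and 1.81. The median member had 25 other peaks within 1 Mb on either side (interquartile range 16 to 36) and the median lower-score peak had 23 (15 to 34), so the ranges largely coincide.

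**Figure D4:**
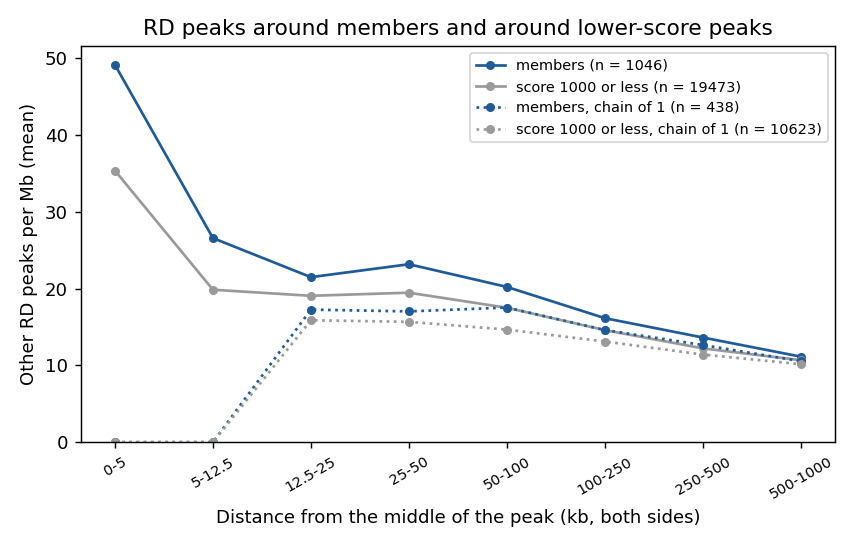
Mean number of other RD peaks per Mb by distance from the middle of a peak (kb, both sides), around members (blue) and lower-score peaks outside chains of 5 or more (grey), with dotted lines for peaks alone in their chain. The solid blue line runs above the solid grey one at every distance, by 20.2 to 17.5 per Mb at 50 to 100 kb and by 11.1 to 10.7 at 500 to 1000 kb, and the dotted lines start at 0 because the chain rule fixes them there.

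A minority of members were far from any other peak. There were 73 with none within 100 kb and 29 with none within 200 kb. A peak lay within 100 kb of 93.0% of members (91.3% to 94.4%) and of 87.9% of lower-score peaks outside clusters (87.5% to 88.4%). Members were thus isolated at that distance less often than weaker peaks. The most isolated were chr4:18884055-18884692 (score 1223, 806.5 kb to the nearest peak), chr11:4903054-4903528 (1028, 802.6 kb) and chr3:168829895-168830436 (1222, 770.5 kb). Isolation did not mean a score near the limit in every case: chr3:51377550-51378480 scored 2770 and was 931 bp wide with no other peak within 653 kb.

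Between consecutive members the median gap was 1205 kb (interquartile range 316 to 3365 kb). No other member lay within 1 Mb of 331 of them, or 31.6%. When members were grouped by gaps of at most 250 kb between them, 645 stood alone, 138 groups held 2, 27 held 3, 5 held 4 and 4 held more. These 4 groups were singled out after their values were seen. Members were 4.61% of all listed peaks, and how many such groups would form at that share was not worked out. Each span begins and ends at a member, which raises the share of members in it. The largest group held 9 members over 803 kb at chr8:129895394-130698396 among 36 listed peaks in the span. Its scores, in order along the chromosome, were 1323, 1565, 1226, 1837, 2067, 2459, 1085, 1121 and 1244. The 2 strongest lay in the middle, 4.91 kb apart, and the other gaps between its members ran from 34.6 to 169 kb.

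The remaining groups of this kind held 5 members each. On chromosome 12, chr12:89842714-90169753 began with one of the chains of 3 described above and ended with a member of score 2008. On chromosome 7, chr7:83993906-84374247 had 2494 as its highest score, with 15 peaks in the span. On chromosome 2, chr2:39638319-40099361 held members of 1029 to 1494 among 21 peaks, with gaps of 75.6 to 172 kb between them. In that last group no 2 members shared a chain, so it consists of separate strong sites spread over 461 kb.

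Across chromosomes, the number of members followed the number of peaks. Chromosome 2 held the most, 129 of its 2833 peaks, and chromosome 1 held 108 of 2358. Members were 4.66% of all autosomal peaks (Wilson 95% interval 4.39% to 4.94%). The share ran from 3.46% on chromosome 22 (1.94% to 6.09%) to 5.69% on chromosome 9 (4.46% to 7.23%), and the interval of each of the 22 autosomes held the autosomal share. Chromosome 13, which has few peaks, held 13 members among 251, or 5.18% (3.05% to 8.66%), and 11 of the 13 were alone. Its highest member was chr13:91805486-91806188, with a score of 1829.

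The X chromosome was the one whose interval lay below the autosomal share. It held 5 members among 280 peaks, or 1.79% (0.765% to 4.11%), and no high-score peak in a large chain. With a score limit of 1500 its interval (0.357%, 0.0631% to 1.99%) held the autosomal 1.67%, and with chain gaps of up to 25000 bp (1.79%, 0.765% to 4.11%) it held the autosomal 3.79%. Its strongest was chrX:135213138-135213739, with a score of 1714 and a width of 602 bp. The others were chrX:11082831-11083495 (1334), chrX:13416370-13417029 (1217), chrX:24714296-24714875 (1049) and chrX:20534134-20534727 (1048). All 5 were alone in their chains. Between 24714875 and 135213138 no member was found over 110 Mb, although 157 weaker peaks lay in that stretch.

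**Figure D5:**
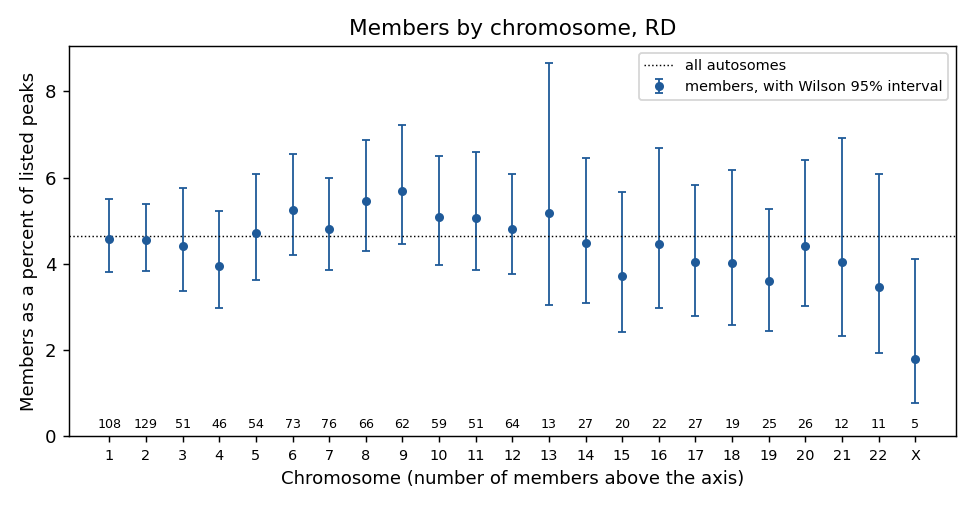
Members as a percent of the listed RD peaks of each chromosome, with Wilson 95% intervals as bars, the number of members above the axis and the share over all autosomes (4.66%) as a dotted line. The bars of the 22 autosomes cross the dotted line and that of X, at 1.79%, ends below it, with no allowance made for the number of chromosomes.

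On 4 chromosomes the members were counted on both sides of a change in peak density, and in each the intervals of their share of peaks overlapped. On chromosome 2, 63 members lay before 156 Mb (0.405 per Mb) and 66 beyond it (0.760 per Mb). They made up 4.31% (3.38% to 5.48%) and 4.81% (3.80% to 6.08%) of the peaks on those sides. Their width against the score-bin median was 0.03 log2 units (-0.05 to 0.12) before and 0.13 (0.09 to 0.22) beyond, and these intervals overlap. On chromosome 9 there were 19 members before 88 Mb (0.216 per Mb) and 43 beyond (0.820 per Mb), or 5.05% (3.26% to 7.76%) and 6.02% (4.50% to 8.01%) of peaks. The rate before 88 Mb includes a stretch of 32.3 Mb without a member, from 38683126 to 71005655, where 61 peaks lay. On chromosome 20 there were 3 before 24 Mb and 23 beyond, or 2.29% (0.782% to 6.52%) and 5.03% (3.38% to 7.44%). On chromosome 6 there were 63 before 150 Mb (0.425 per Mb) and 10 beyond (0.476 per Mb), and the share was lower on the denser side, at 5.45% (4.29% to 6.92%) and 4.27% (2.34% to 7.69%).

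The same rule applied to the YAP-ERMS list (mm9) gave 2565 of 47033 peaks, or 5.45%. The values are set side by side only, since species, control and possibly depth differ. Of the YAP-ERMS peaks above 1000 on chromosomes 1 to 19 and X, 74.0% lay outside chains of 5 or more (72.5% to 75.4%), against 84.6% in RD. There, too, high-score peaks outside large chains were alone less often than lower-score ones, at 35.1% (33.3% to 36.96%) and 43.4% (42.9% to 43.9%). Against score-bin medians they had a median width of -0.03 log2 units (-0.05 to -0.01), and those in large chains had 0.14 (0.07 to 0.18). In both lists, strong peaks outside large chains had more company than weak ones and were narrower against their score-bin medians than strong peaks inside them. This is a description, since the rule used score and spacing. The bins did not hold score equal: its upper quartile outside and inside large chains was 1682 and 1764 in RD, and 1777 and 1982 in YAP-ERMS.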

How the data were processed

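The submitters' processing notes name Bowtie2 and the builds hg19 and mm9. Each deposited list holds peak positions and a score, under peak names of the kind MACS writes. The score that the authors deposited was taken as -10 log10 of the p-value, since its minimum of 80 is then the p limit in the lists' names (1e-08). For versions, read filters and duplicate handling, nothing is given in the sources used here. Summits, read counts and folds are not in the lists used, and depth is unknown.

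With Python 3.11.15, numpy 2.4.6, pandas 2.3.3, scipy 1.17.1 and statsmodels 0.14.6, peaks of all sequences were chained by gaps of at most 12500 bp and widths, gaps and shares computed. Printed positions are 1-based, and width counts both end bases. Intervals are Wilson (shares), Newcombe (differences) and order-statistic (medians), all at 95%. The chain search was checked on simulated peaks. Members and comparisons were chosen with earlier results of these data known. Peaks named were the 12 highest, the highest of each chain size and the 3 on each side of the score limit; every other named peak was chosen after its values were seen. Planned comparisons of motifs, GC content, gene starts and gene lists need hg19 sequence and annotation, which were not used here, so no gene is assigned to a peak.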

Additional observations from a re-analysis of the deposited data

Results flagged for a closer look

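The rule leaves out random and unplaced sequences, where 4 RD peaks also scored above 1000. They are given because they lie outside the comparisons above. Their scores ran from 1143 to 2334 and their widths from 592 to 3457 bp. They were 7.84% of the 51 peaks on Y, random and unplaced sequences (Wilson 95% interval 3.09% to 18.5%), an interval that holds the 5.47% of the whole list, and none of the 4 was on Y.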

How the results depend on the processing

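The number of members, 1046, became 1578 with a score limit of 800 and 374 with a limit of 1500. Under the 8 other settings it stayed between 851 and 1195. Those settings were gaps of 5000 or 25000 bp, chains of 4 or of 6 and more left out, very wide members left out, and 3 added after the data were seen: peaks within 200 or 1000 bp joined first, and scores of 3100 or more left out. The share of members alone ran from 35.7% to 56.7%. The median width of members ran from 662.5 to 770 bp. Members as a percent of X peaks ran from 0.357% (limit of 1500) to 3.21% (limit of 800), and of autosomal peaks from 1.67% to 7.02% at the same limits. A higher limit takes fewer peaks by construction.

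Alternatives on windows, motifs, flanks, gene starts, gene bodies, GC and gene lists were not run, because hg19 sequence and annotation were not used here. No paired analysis was possible because each group has 1 library and no result comes from a test. Unknown depth limits what the absence of a peak near a member can show.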
